A study of Saccharomyces cerevisiae with 4 samples.

Results

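The comparison described here set a ubp10 sir4 double null strain of the budding yeast Saccharomyces cerevisiae against a strain labelled as lacking SIR4 alone, so that UBP10 was absent on one side and present on the other while SIR4 was absent, per the labels, on both. It used 2 of the 4 arrays of the series and every probe set that was not a control, 9275 of 9335, which named 5656 genes. The genotypes were the ubp10 sir4 double null and the sir4 null, and, given beside them, the ubp10 null and the wild type W303-1A, a haploid laboratory strain of mating type a. RNA was total RNA from exponentially growing cells, hybridised to Affymetrix Yeast Genome S98 arrays. Each strain had 1 array, so no value below has an SD or a p-value, no difference has a replicate check, and precision is limited by the number of arrays. Differences are described by size alone. How the deletions were made, and whether the strains share a recent parent, the labels do not say.

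UBP10 encodes a ubiquitin-specific protease that takes ubiquitin off histone H2B and is known for a part in silencing near telomeres. SIR4 encodes a subunit of the Sir complex, which holds telomere-proximal chromatin and the silent mating cassettes HML and HMR in an inactive state. When the alpha cassette at HML is read in a haploid of type a, the alpha2 protein represses a-specific genes. Together with a1, alpha2 represses the haploid-specific genes that both mating types otherwise express.

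The deposited value of a probe set is an average-difference intensity, a linear measure that can fall below 0. Values under a floor of 6.67 units, which is 3 noise SDs of 2.22 units, were raised to it. For a call, the strains had to differ by a ratio of 2 or more and the brighter value had to reach 13.3 units. Where 1 value sits at the floor, the fold given (at least N-fold) is the smallest it can be. Of the non-control probe sets, 73.1% in the double null and 71.7% on the array labelled sir4 null lay above the floor, and the median intensities were 38.2 and 34.5 units.

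The control probe sets set the array labelled sir4 null apart, and this bears on every difference that follows. For ACT1, which encodes actin, the 5′ probe set read 945.5 units in the double null and 16.1 on the array labelled sir4 null, a 58.7-fold difference. The middle probe set read 1010.9 and 176.2 units, and the 3′ probe set 1383.3 and 1399.6 units. The same transcript thus differed or did not differ between the strains depending on the end that was read. For SPT15, the gene of the TATA-binding protein, the 5′ probe set read 214.1 units in the double null and 29.2 on the array labelled sir4 null, the middle one 638.8 and 342.6, and the 3′ one 427.5 and 545.7. SRB4, a Mediator subunit gene, read 40.2 units in the double null and 0.5 on the array labelled sir4 null with its middle probe set, and 50.2 and 55.0 with its 3′ probe set. The ratio of the 3′ to the 5′ probe set of ACT1 was 1.46 in the double null and 86.93 on the array labelled sir4 null, against 1.12 in the ubp10 null and 1.55 in the wild type. The 9 probe sets of the bacterial and phage controls BioB, BioC, BioDn and CreX went the other way: all 9 were dimmer in the double null, with the array labelled sir4 null 1.53- to 2.24-fold brighter.

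**Figure D1:**
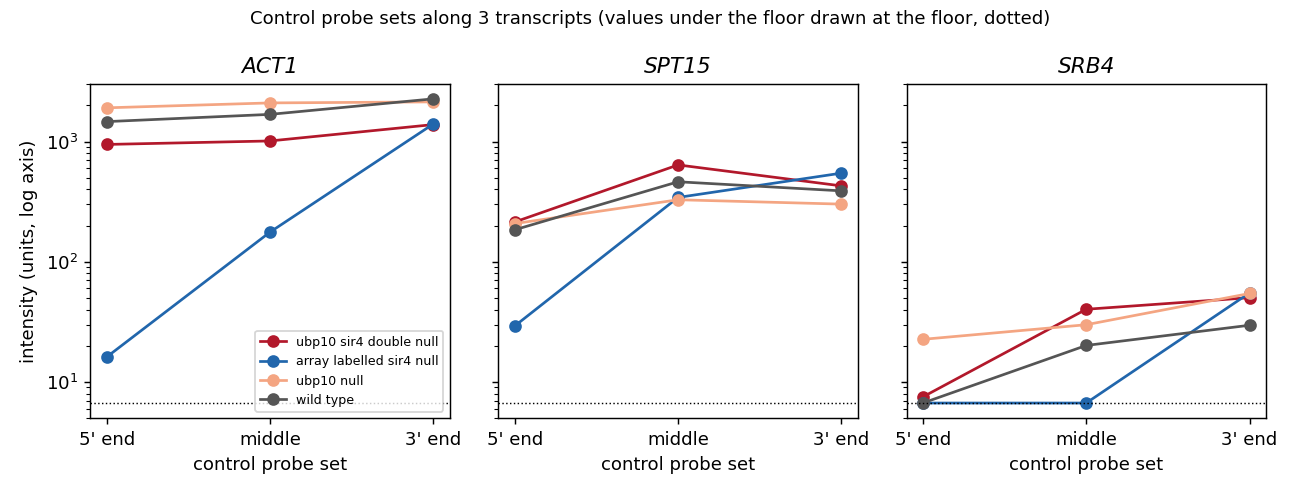
Intensity (units, log axis) of the 5′, middle and 3′ control probe sets of ACT1, SPT15 and SRB4, with 1 line per array and the floor dotted. For ACT1 the double null has 945.5 units at the 5′ end and 1383.3 at the 3′ end, while the array labelled sir4 null has 16.1 and 1399.6 units.

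By the size rule, 449 genes were higher in the double null (7.94% of 5656) and 176 were lower (3.11%), so that 71.8% of the calls were higher. Among probe sets, 698 of 9275 were higher (7.53%) and 435 lower (4.69%). Most genes were close between the strains: 4969 genes, or 87.9%, were above the floor on both arrays, their median log2 ratio was 0.01, and the ratios ran from -0.83 at the 5th percentile to 1.22 at the 95th. Of the higher genes 98 differed by 4-fold or more and 21 by 8-fold or more. Of the lower genes 36 and 16 did. The most lowered genes were mating genes. The most raised were a mixed set, many of which read low on the array labelled sir4 null alone. Scaling the arrays on the BioB, BioC, BioDn and CreX controls (spike-control scaling) instead moved the median log2 ratio to 0.84, with 2011 genes higher and 56 lower (97.3% of calls higher), and quantile normalization gave 403 and 212 (65.5% higher).

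**Figure D2:**
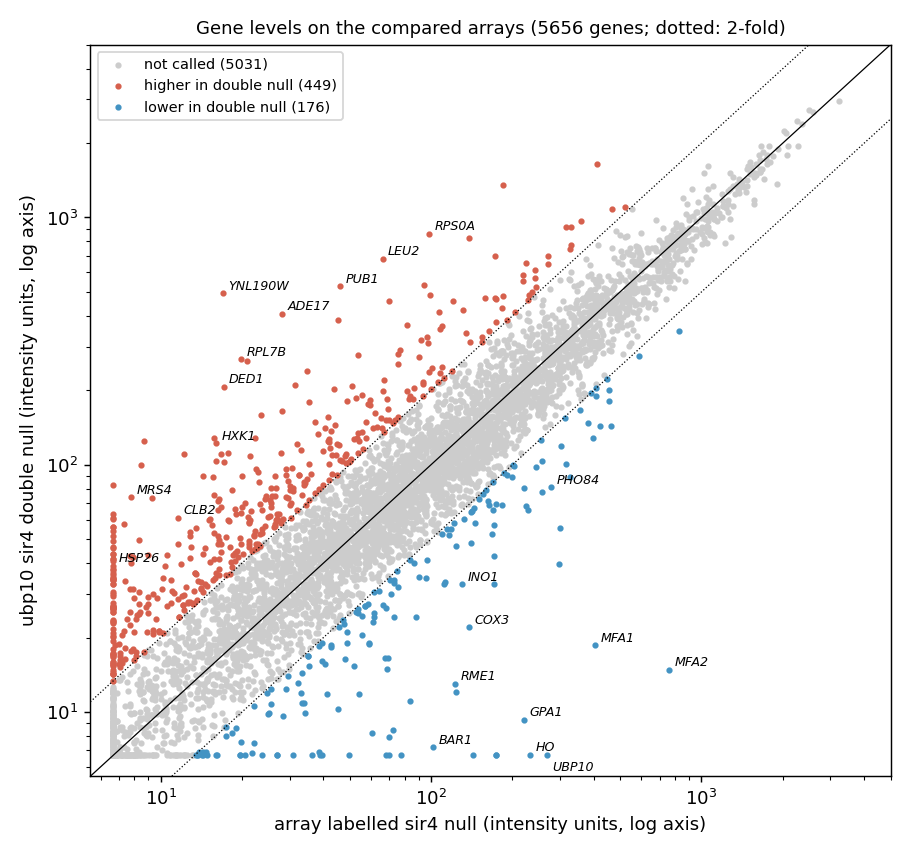
Each point is 1 of 5656 genes, with its intensity in the double null (y, units, log axis) and on the array labelled sir4 null (x, units, log axis); the solid line is equality and the dotted lines are 2-fold. The 449 higher genes lie above the upper dotted line and the 176 lower genes below the lower one, with MFA2, UBP10 and HO among those farthest down.

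The deleted genes were read first. UBP10 was at the floor in the double null and had 269.2 units on the array labelled sir4 null, at least 40.3-fold lower. It was also at the floor in the ubp10 null, against 247.9 units in the wild type, so its probe set followed the labels on all 4 arrays. SIR4 read 15.5 units in the double null and 20.7 on the array labelled sir4 null, against the floor in the ubp10 null and 10.8 units in the wild type. The wild-type value of SIR4 was under the brightness needed for a call, so the probe set checks neither of the sir4 labels, and the single null is therefore named by its label in what follows. Genes next to UBP10 on chromosome XIV, picked after their values were seen, gave the values around the deletion. YNL184C, a reading frame 2 genes away, read 43.4 units in the double null and was at the floor on the array labelled sir4 null, at least 6.51-fold higher, and YNL190W, 4 genes away on the other side, was 29.0-fold higher. The other 6 of the 8 neighbours were not called, among them MRPL19 next to UBP10 with 61.4 and 39.3 units.

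The 7 a-specific genes, which serve mating only in cells of type a, were all called lower in the double null, with 0 higher and a median log2 ratio of -3.82, beside 0 over all genes. MFA2, a gene for the a-factor pheromone, read 14.8 units in the double null and 761.0 on the array labelled sir4 null, a 51.4-fold fall. MFA1, the other a-factor gene, read 18.6 and 404.6 units, 21.8-fold lower, and its probe sets moved alike, with 31.6 and 10.9 units in the double null and 428.7 and 381.9 on the array labelled sir4 null. These are similar genes, and signal shared between their probe sets cannot be told apart. STE2, the receptor for alpha-factor, was at the floor in the double null and had 174.4 units on the array labelled sir4 null, at least 26.1-fold lower. BAR1, the protease that degrades alpha-factor, read 7.2 and 101.8 units, 14.1-fold lower. AGA2, an agglutinin subunit, was at the floor against 77.3 units, at least 11.6-fold lower, and STE6, the a-factor exporter, read 12 and 123.3 units, 10.3-fold lower. ASG7, a regulator of pheromone signalling, was at the floor against 16.2 units, at least 2.4-fold lower. On the arrays labelled as carrying SIR4 most of these genes were expressed: MFA2 had 1195.7 units in the ubp10 null and 1117.4 in the wild type, and STE2 had 117.1 and 231.2 units. For 6 of the 7, all but ASG7, the double null lay more than 2-fold from each of the other 3 arrays, so the array labelled sir4 null was closer to the arrays labelled as carrying SIR4 than the double null was.

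The haploid-specific genes, many of which carry the pheromone signal, gave 9 lower and 0 higher of 12, with a median of -2.76. HO, the endonuclease of mating-type switching, was at the floor in the double null and had 232.3 units on the array labelled sir4 null, at least 34.8-fold lower. FAR1, the cyclin-dependent kinase inhibitor that arrests cells in response to pheromone, was at the floor against 174.5 units, at least 26.2-fold lower. GPA1, STE4 and STE18, the subunits of the pheromone G protein, read 9.3 and 221.6 units (23.8-fold lower), 55.7 and 300.6 units (5.4-fold lower), and the floor and 69.9 units (at least 10.5-fold lower). RME1, a repressor of meiosis, read 13.0 and 122.5 units, 9.4-fold lower. STE5, the scaffold of the pheromone kinase cascade, read 8.5 and 72.4 units, 8.5-fold lower, AXL1, a protease that matures a-factor, at least 4.6-fold lower, and SST2, which dampens G protein signalling, 3.5-fold lower. The other 3 were not called. NEJ1, a factor of DNA end joining, had the floor value and 10.6 units, and STE12, the transcription factor of the pathway, 37.9 and 30.9 units. FUS3, the mating kinase, had the floor value and 13.2 units as means of 3 floored probe sets, at least 1.98-fold lower. These FUS3 values lay just under the limits for a call. With plain probe sets alone (names without a type letter) 10 haploid-specific genes were lower. For HO, GPA1, FAR1, STE4, STE5 and NEJ1 the array labelled sir4 null was also the brightest of the 4. GPA1 and HO had 22.4 and 27.5 units in the ubp10 null and 74.3 and 77.9 units in the wild type, and were called lower in the ubp10 null. YGL193C, a small reading frame known as a target of a1-alpha2 repression, was at the floor in the double null and had 143.2 units on the array labelled sir4 null, at least 21.5-fold lower. In such bulk RNA, fewer cells that express a gene and less of its RNA per cell cannot be told apart.

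**Figure D3:**
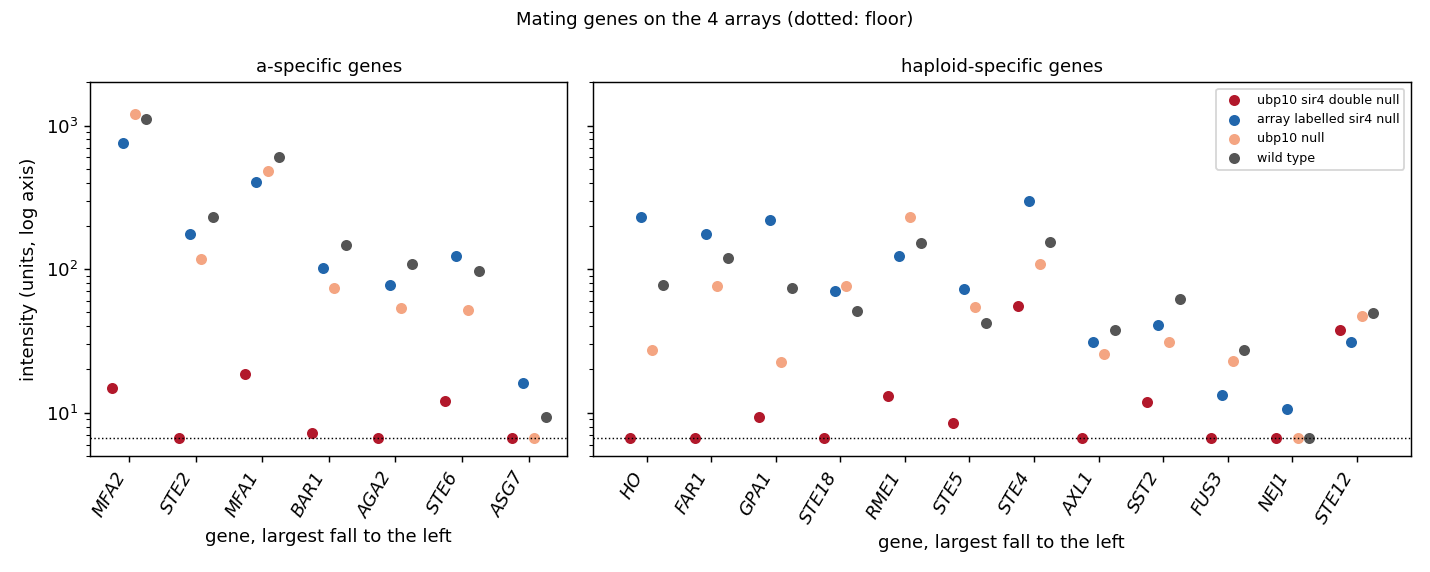
Intensity (units, log axis) of the 7 a-specific and 12 haploid-specific genes on the 4 arrays, 1 point per array, with the floor dotted. In both panels the double null lies lowest, or level with another array at the floor, for every gene but STE12, where it had 37.9 units, against 30.9 on the array labelled sir4 null.

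The 3′ to 5′ ratios of the controls in the double null were 1.46 for ACT1, 2.0 for SPT15 and 6.69 for SRB4; the part of 5′ signal in these mating gene values was not tested. With spike-control scaling the medians were -3.6 for the a-specific and -1.94 for the haploid-specific genes, and both lists stayed below 0 under quantile normalization and cyclic loess.

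Probe sets listed for the silent cassettes read alike or moderately higher in the double null. For alpha1, a probe set listed for more than 1 copy had 93.1 units in the double null and 57.2 on the array labelled sir4 null, a ratio of 1.63 that was under the call threshold, with 14.8 units in the ubp10 null and 17.3 in the wild type. Another alpha1 probe set was under the floor on all 4 arrays. The alpha2 probe sets are listed for HMRA2 as well. Of them, 1 read 143.8 and 143.0 units, against 65.4 in the ubp10 null and 49.2 in the wild type. The other read 71.3 and 30.2 units, a called 2.36-fold rise, against 82.8 and 24.6 units. The brightest probe set listed for HMRA1 read 216.6 units in the double null and 252.4 on the array labelled sir4 null, against 279.3 units in the ubp10 null and 88.1 in the wild type. The other HMRA1 probe sets read 14.7 and 20.2 units and 14.2 and 15.0 units, beside values under the floor in the ubp10 null and the wild type. All of these probe sets that were above the floor anywhere read above the wild type on both arrays labelled as lacking SIR4. The ubp10 null was also above the wild type for both alpha2 probe sets and the brightest HMRA1 probe set, and it was the brightest of the 4 arrays for that HMRA1 probe set and for the alpha2 probe set at 82.8 units. Because the alpha probe sets match more than 1 copy, the locus behind their signal is not resolved. For the alpha2 ones, signal from HMRA2 cannot be told apart either. Likewise, signal from HMR and from the mating-type locus was not told apart for the HMRA1 probe sets.

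Few alpha-specific, meiosis or pheromone-induced genes were called, and those were dim or moderate. Of 4 alpha-specific genes, STE3, the receptor for a-factor, was called, with 23.6 units in the double null and the floor value on the array labelled sir4 null, at least 3.5-fold higher. STE3 was also called higher in the ubp10 null, with 16.3 units against the floor in the wild type. SAG1, an agglutinin, read 30.0 and 43.1 units, and the alpha-factor genes MF(ALPHA)1 and MF(ALPHA)2 were at or near the floor. Of 22 meiosis and sporulation genes 2 were higher (9.1%) and 1 lower (4.5%). IME4, a gene of meiotic entry, read 26.3 units in the double null and the floor value on each of the other 3 arrays, at least 3.9-fold higher, and IME1, the master regulator, read 20.8 and 10.2 units, a ratio of 2.0. Of 16 pheromone-induced genes 3 were lower (18.8%) and 0 higher, among them PRM5, with 46.9 and 123.4 units, 2.6-fold lower.

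General stress genes were higher in the double null in 9 of 26 cases (34.6%) and lower in 1 (3.8%), with a median log2 ratio of 0.60. HXK1, a hexokinase made in poor carbon supply, read 121.9 units in the double null and 16.1 on the array labelled sir4 null, 7.6-fold higher. TMA10, a small stress-induced protein, read 34.4 units against the floor, at least 5.2-fold higher, and HSP12, a membrane-protecting heat shock protein, 219.8 and 66.8 units, 3.3-fold higher. YGP1, a secreted glycoprotein of starved cells, went the other way, with 143.0 and 420.6 units, 2.9-fold lower. Among 26 genes of chaperones and the heat shock response, 3 were higher (11.5%, near the 7.94% over all genes) and 0 lower. These were HSP26 with 39.1 units against the floor (at least 5.9-fold), HSP42 with 124.9 and 41.7 units (3.0-fold), both small heat shock proteins, and the Hsp70 gene SSA3 with 14.2 units against the floor (at least 2.1-fold). Of 16 trehalose and glycogen enzymes 1 was called (6.2%, below the 7.94%), the glycogen synthase GSY1, with 24.7 and 8.2 units, 3.0-fold higher. In the other background the same lists had larger counts: 19 of 26 general stress, 12 of 26 heat shock and 7 of 16 trehalose and glycogen genes were higher in the ubp10 null than in wild-type cells, with medians of 2.18, 0.75 and 0.90. The share higher over all genes there was 9.44%. The difference between the backgrounds was not tested. Of the 9 higher general stress genes, 7 were more than 2-fold brighter on both arrays without UBP10 than on both with it, and HXK1 and TMA10 were among them.

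Genes of purine synthesis and glycine cleavage were higher in 8 of 18 cases and lower in 0, with a median of 0.80, beside 0.02 in the ubp10 null against the wild type. ADE17, an enzyme late in purine synthesis, read 408.7 units in the double null and 28.1 on the array labelled sir4 null, 14.5-fold higher, with 402.8 units in the ubp10 null and 87.6 in the wild type. GCV1, a subunit of the glycine cleavage system, read 89.6 and 15.6 units, 5.7-fold higher, and ADE2, an early purine enzyme, 133.7 and 38.1 units, 3.5-fold higher. IMD4, an IMP dehydrogenase, was 6.5-fold higher, but on 1 of its probe sets only, with 311.6 and 4.5 units against 672.1 and 734.5 units on the other. Of the 8, 4 were more than 2-fold lower on the array labelled sir4 null than on each of the other 3 arrays. The marker genes that are mutant in the W303 strain family, with a median of 1.25, were called in 3 of 6 cases, all higher: LEU2 10.3-fold, HIS3 3.7-fold and ADE2. The LEU2 probe sets read 493.1, 599.3 and 1068.9 units in the double null and, on the array labelled sir4 null, -4.4, 44.0 and 993.3 units, so that the last of them was level. HIS3 read 358.9 and 90.9 units with its probe sets in the double null and, on the array labelled sir4 null, 47.2 and 50.4 units. URA3, TRP1 and CAN1 were not called, with 237.9 and 160.0, 36.2 and 22.4, and 179.4 and 131.2 units. A control probe set for URA3, which did not enter the calls, read 376.5 units in the double null and 139.3 on the array labelled sir4 null, 2.7-fold higher. The labels do not say which markers replaced the deleted genes.

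Phosphate genes lay lower in the double null, with 5 of 14 lower, 0 higher and a median of -0.88. PHO84, the high-affinity phosphate transporter, read 81.0 units in the double null and 277.3 on the array labelled sir4 null, 3.4-fold lower. SPL2, a regulator of phosphate uptake, read 16.6 and 67.6 units, 4.1-fold lower, and PHO5, the secreted acid phosphatase, 31.9 and 75.2 units, 2.4-fold lower. VTC3, a polyphosphate polymerase subunit, read 65.2 and 141.9 units, 2.2-fold lower. For 4 of the 5 the array labelled sir4 null was more than 2-fold above each of the other 3 arrays; PHO84, for example, had 11.6 units in the ubp10 null and 71.5 in the wild type, so the double null lay near the wild type. With spike-control scaling 1 of 14 was lower and the list median was -0.03. Nitrogen-source genes had 5 lower and 1 higher of 25, with a median of -0.12 (0.73 with spike-control scaling): PUT1, proline oxidase, was 3.3-fold lower (68.2 and 224.5 units), DAL7 and DAL2 of allantoin breakdown 3.2- and 3.1-fold lower, and the proline permease PUT4 2.9-fold higher (652.2 and 225.3 units). All 5 of the lower ones had the array labelled sir4 null more than 2-fold above the other arrays. INO1, the first enzyme of inositol synthesis, read 32.8 and 130.7 units, 4.0-fold lower, with 15.5 units in the ubp10 null and 9.5 in the wild type, while INO2, an activator of INO1, read 41.4 units against the floor, at least 6.2-fold higher.

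Of 8 protein genes of the mitochondrial DNA, 5 were lower in the double null and 0 higher, with a median of -1.11; with spike-control scaling 3 were lower and the median was -0.31. COX2 and COX3, subunits of cytochrome oxidase, read 11.1 and 83.5 units (7.5-fold lower) and 22 and 138.0 units (6.3-fold lower). COB, apocytochrome b, read 24.2 and 88.3 units, 3.7-fold lower. In the ubp10 null and the wild type these 3 genes read between the floor and 11.4 units, so the array labelled sir4 null was the one that stood above the rest. COX1 was 2.3-fold lower, but its probe sets split, with 25.1 and 115.5, 37.3 and 133.8, and 149.0 and 103.2 units. Of 35 nuclear genes for the respiratory chain 6 were higher (17.1%, beside 7.94% over all genes), 1 was lower (2.9%) and 28 were not called, with a median of 0.18. The largest rises were those of RIP1, the Rieske protein, with 700.3 and 172.0 units (4.1-fold), and the ATP synthase gene ATP16 with 473.3 and 157.9 units (3.0-fold). RIP1 had 350.1 units in the ubp10 null and 375.4 in the wild type, so the array labelled sir4 null was more than 2-fold below each of the other arrays. A control probe set for RIP1 read 517.5 and 24.3 units, a 21.3-fold difference for the same transcript. SDH2, a succinate dehydrogenase subunit, read 457.4 and 120.4 units, 3.8-fold higher. Of 65 mitochondrial ribosomal protein genes 4 were higher and 0 lower, MRP20 leading with 70.1 and 20.6 units, 3.4-fold; the share of 6.2% lies below the 7.94% over all genes.

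Iron and copper genes were higher in 8 of 24 cases and lower in 1, with a median of 0.51. MRS4, a mitochondrial iron carrier, read 73.9 units in the double null and 7.8 on the array labelled sir4 null, 9.5-fold higher, with 38.3 units in the ubp10 null and 42.8 in the wild type. SIT1, a siderophore transporter, read 329.9 and 97.0 units, 3.4-fold higher, FIT3, a cell wall mannoprotein of siderophore uptake, 320.2 and 91.9 units, 3.5-fold higher, and TIS11, which degrades mRNAs in iron shortage, 26.7 units against the floor, at least 4.0-fold higher. For 3 of the 8 the double null stood more than 2-fold from every other array, and for 2 the array labelled sir4 null did. In the ubp10 null against the wild type, 3 of the 24 were higher and 1 was lower.

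**Figure D4:**
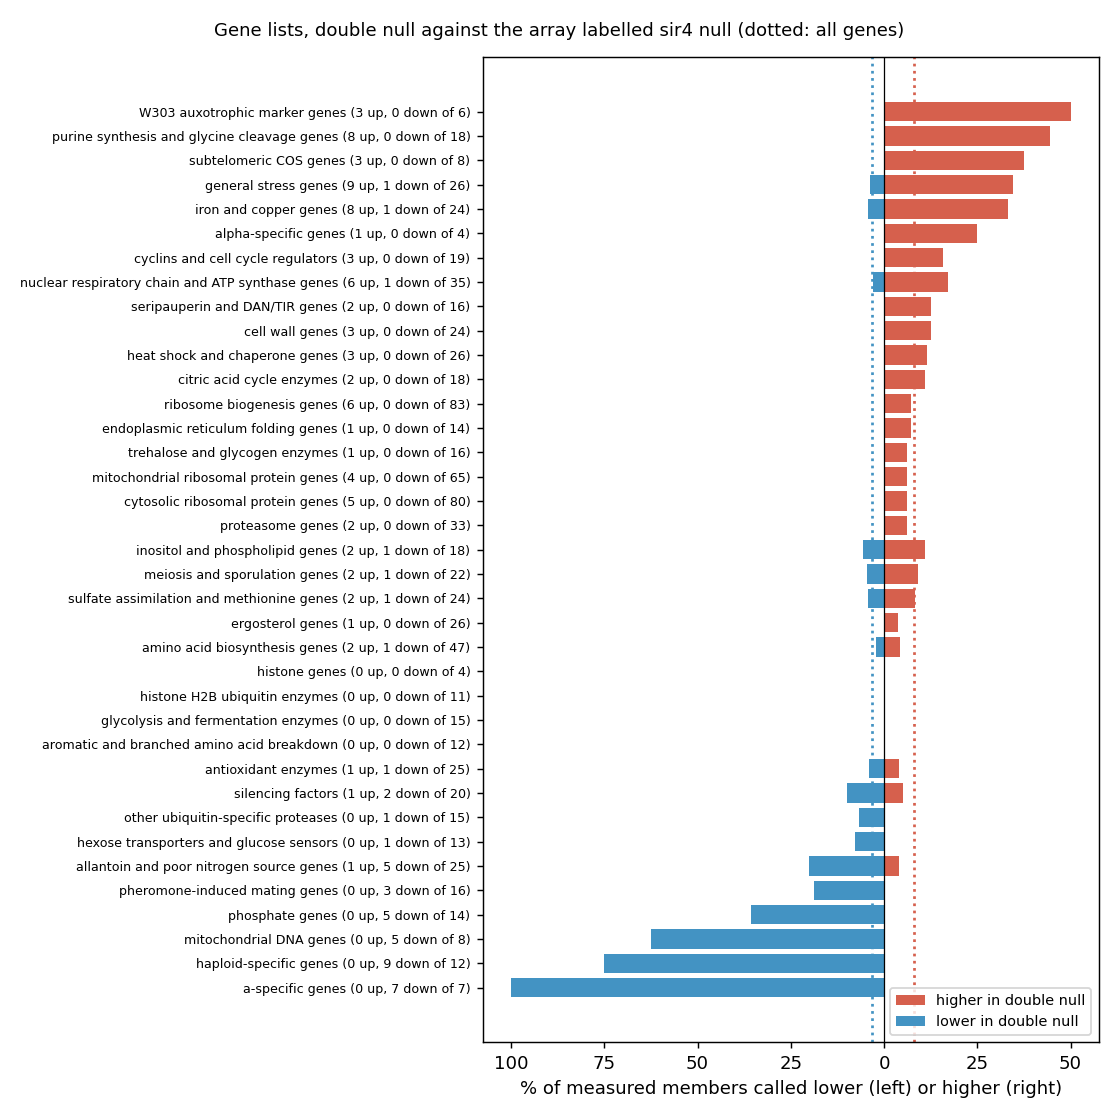
Share of the measured members of each of 37 gene lists called lower (left, %) or higher (right, %) in the double null than on the array labelled sir4 null, with the shares over all genes dotted. The a-specific (7 of 7) and haploid-specific (9 of 12) lists reach farthest to the left, followed by the mitochondrial DNA genes (5 of 8). The W303 marker genes (3 of 6) reach farthest to the right, followed by purine (8 of 18), COS (3 of 8) and general stress genes (9 of 26).

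The largest rises above the floor on both arrays were led by YNL190W, with 493.8 units in the double null and 17 on the array labelled sir4 null, 29.0-fold. YME1, a protease of the mitochondrial inner membrane, read 124.7 and 8.7 units (14.3-fold), DED1, an RNA helicase of translation initiation, 207.2 and 17.1 units (12.1-fold), and PUB1, a poly(A) RNA-binding protein, 526.1 and 46.2 units (11.4-fold). YOR302W, the leader peptide upstream of CPA1, read 262.7 and 20.9 units (12.6-fold), and SIT4, a protein phosphatase, 110.9 and 12.2 units (9.1-fold). IMO32, a mitochondrial protein, read 99.6 and 8.5 units, 11.7-fold higher. In the ubp10 null and the wild type IMO32 had 30.2 and 42.7 units and SIT4 30.5 and 31.7 units. For IMO32 and SIT4 the double null was thus more than 2-fold above each of the other arrays. For all 12 of these largest rises the array labelled sir4 null was more than 2-fold below each of the other arrays. DED1, for example, had 328.5 units in the ubp10 null and 254.2 in the wild type. The brightest rises against the floor had the same form: RAX1, a gene of bud-site selection, with 83.0 units (at least 12.4-fold), YAP7, a bZIP factor, with 63.0 (at least 9.4-fold), ART5, an arrestin, with 61.2 (at least 9.2-fold), CBP1, which stabilises COB mRNA, with 60.5 (at least 9.1-fold), HCM1, a forkhead factor, with 56.1 and ARG80, an arginine regulator, with 55.8 (each at least 8.4-fold).

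Probe sets of the same gene often parted in this comparison. Of 256 genes with several probe sets to compare, 113, or 44.1%, had ratios that differed by more than 4-fold between probe sets, against 37 of 259 (14.3%) in the ubp10 null against the wild type. Among those called higher in the double null it was 37 of 46 (80.4%), and among those called lower 1 of 7 (14.3%). In 93 of the 256 genes 1 probe set was at least 4-fold higher in the double null while another was within 2-fold, and the reverse held in 6. RPS0A, a ribosomal protein gene called 8.7-fold higher, shows it: 1 probe set read 842.3 units in the double null and 11 on the array labelled sir4 null, and the other 874.5 and 885.3 units. ECM33, a cell wall protein, read 549.2 and 16.3 units with 1 probe set and 1242.5 and 1177.6 units with the other, and DBP2, a helicase of ribosome assembly, 224.6 and 26.9 and then 553.9 and 433.1 units. The unfolded protein response regulator HAC1, 4.1-fold higher over all its probe sets, had 135.8 and 1.5 units with 1 of them and 424.2 and 263.0 units with another. RPL7B had no level probe set, with 378.5 and 23.7 units and 188.6 and 16.6 units, 13.5-fold higher over both. The near-identical pairs RPS0A and RPS0B, and RPL7A and RPL7B, may share signal. These 4 were among the 5 of 80 cytosolic ribosomal protein genes called higher, with 0 lower, and in all 5 the array labelled sir4 null stood apart; the list's median was -0.08 (0.77 with spike-control scaling). For genes with 1 probe set no such check could be made, and the part of the 5′ signal loss in their rises was not tested.

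Lists tied to the deleted functions are given here beside the shares over all genes, 7.94% higher and 3.11% lower. None of 11 enzymes of histone H2B ubiquitylation or of 4 histone genes was called by the size rule. Of 15 other ubiquitin-specific proteases 1 (6.7%) was called, UBP3, with 22.1 and 45.6 units, 2.1-fold lower. Of 20 silencing factors 1 was higher, ESC2, with 28.8 and 9.7 units (3.0-fold), and 2 were lower, RIF1, a telomere-binding regulator, with 25.2 and 53.7 units (2.1-fold), and HST1, a SIR2 paralog, with 194.3 and 389.5 units (2.0-fold). Of 8 COS genes, a subtelomeric family, 3 were higher (37.5%) and 0 lower: COS7, COS9 and COS6. COS9 was higher on 1 of its probe sets, with 69.4 and 5.9 units, and not on a second, with 69.4 and 57.1 units. The 10 outermost measured genes of each chromosome arm, a set defined after the data were seen, had 33 higher and 11 lower of 320 (10.3% and 3.44%), beside 413 and 145 of the other 5166 protein-coding genes (7.99% and 2.81%).

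Some other lists follow, again beside 7.94% higher and 3.11% lower over all genes. Glycolysis and fermentation enzymes had 0 calls of 15, with a median of 0.02, and aromatic and branched amino acid breakdown 0 of 12. Ribosome biogenesis had 6 higher (7.2%) and 0 lower of 83, and proteasome genes 2 higher (6.1%) and 0 lower of 33. Amino acid biosynthesis had 2 higher (4.3%) and 1 lower (2.1%) of 47. Among cyclins and cell cycle regulators 3 of 19 were higher (15.8%) and 0 lower, with the mitotic cyclin CLB2 at 61.2 and 11.6 units, 5.3-fold higher, beside 14.8 units in the ubp10 null and 21.2 in the wild type. Of the sulfate and methionine genes 2 of 24 were higher (8.3%) and 1 lower (4.2%). MET28, an activator of sulfur genes, read 156.1 and 41.5 units, 3.8-fold higher, and SUL1, a sulfate permease, 276.2 and 589.4 units, 2.1-fold lower. SUL1 fell in the ubp10 null as well, with 180.8 units against 590.2 in the wild type.

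Set against all 4 arrays, the calls differed in which array stood apart. With 1 array per strain, a difference of the strain and one of its array cannot be told apart. Of the 449 higher genes, 53 (11.8%) were more than 2-fold higher on both arrays without UBP10 than on both with it. Of the rest, 128 (28.5% of the 449) had the array labelled sir4 null more than 2-fold apart from each of the other 3, 85 (18.9%) had the double null so apart, and 4 had both so. Another 179 (39.9%) met none of these patterns. Of the 176 lower genes, UBP10 divided the arrays in 9 (5.1%), the array labelled sir4 null stood apart in 79 (44.9%), the double null in 25 (14.2%) and both in 1, with 62 (35.2%) in none of these patterns. The genes whose level followed UBP10 on all 4 arrays, beside UBP10 itself, included MHF2, a histone-fold protein, with 39.6 units in the double null and 297.6 on the array labelled sir4 null, against 32.1 units in the ubp10 null and 111.5 in the wild type. PCL2, a G1 cyclin, followed it upward, with 48.0 and 16.8 units and, in the other pair, 45.2 and 19.6 units.

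The loss of UBP10 could also be read in cells labelled as carrying SIR4, from the ubp10 null against the wild type, a comparison that shares no array with the first. There 534 genes were higher (9.44%) and 476 lower (8.42%). Of the 449 genes higher in the double null, 93 were higher there too, which is 20.7% of the 449 and 17.4% of the 534, while 19 were lower and 337 were not called. Of the 176 lower genes 33 were lower there too, 18.8% of the 176 and 6.9% of the 476, while 19 were higher and 124 were not called. Opposite calls thus made up 38 genes, 0.672% of all. Across the 4642 genes above the floor on all 4 arrays the log2 ratios had a Pearson correlation of 0.17 and a Spearman correlation of 0.19, given as a description over genes that share arrays. The a-specific and haploid-specific lists had medians of -3.82 and -2.76 in the sir4 background and -0.89 and -0.38 in the other, by the labels, and 2 genes of each were called lower in the second comparison: BAR1 and AGA2, and GPA1 and HO. PHO84, PHO5 and VTC3 were lower in both backgrounds, with log2 ratios of -1.78, -1.24 and -1.12 in the sir4 background, against ratios of -2.62, -1.12 and -1.75 for the ubp10 null over the wild type.

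**Figure D5:**
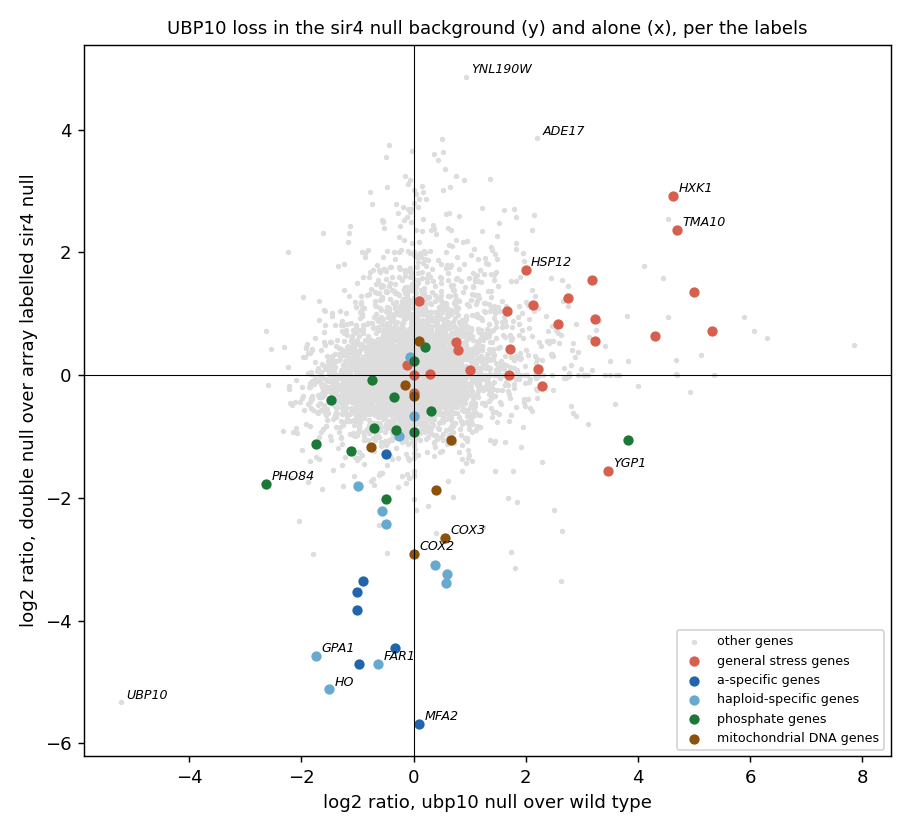
Log2 ratio of the double null over the array labelled sir4 null (y) and of the ubp10 null over the wild type (x) for 5656 genes, with 5 gene lists coloured. General stress genes lie mostly to the right, with medians of 0.60 on y and 2.18 on x, and a-specific genes lie low, with medians of -3.82 on y and -0.89 on x.

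Short RNAs and long genes were examined because the arrays differed in 5′ signal. Of 57 snoRNA genes 11 (19.3%) were lower in the double null and 1 was higher. Of 91 tRNA genes 8 (8.8%) were lower and 0 higher, beside 3.11% lower and 7.94% higher over all genes. In the ubp10 null against the wild type 28 tRNA genes were higher and 0 lower, and 11 snoRNA genes were higher and 5 lower. That comparison had 9.44% higher and 8.42% lower over all genes. The tRNA gene YNCO0012C read 7.9 units in the double null and 69.7 on the array labelled sir4 null, against 48.2 units in the ubp10 null and 13.8 in the wild type. The protein-coding genes of up to 927 bases, 1830 of them, were called higher in 7.32% and lower in 2.9%. Those of 928 to 1656 bases were called in 9.64% and 2.34%, and the longer ones in 7.42% and 3.3%. The share of calls thus had no steady course with gene length. Gene length does not give the distance of a probe set from the 3′ end, so these shares cannot show the part of the 5′ signal loss in the calls.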

How the data were processed

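The deposited intensity values were made by the authors with MAS 4.0, per the labels, as average differences per probe set (no label states a global scaling). The mean between the 2nd and 98th percentiles was 100.0 on each array, so values were used as deposited. The noise SD (2.22 units) was taken from negative values mirrored about 0 on the 4 arrays. Of 9275 probe sets, 6504 had 1 gene symbol, taken from the platform annotation and brought up to date with the RefSeq gene table, 328 had several and 2443 were not listed. Floored probe sets of a gene were averaged on the log2 scale; 315 of 5656 genes had more than 1. Values are printed back on the intensity scale. With 1 array per strain no test was run, and calls go by a ratio of at least 2 with the brighter value at 2 times the floor.

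The members and lists were chosen with earlier results of these data known. Named genes were the targeted genes and controls, the 12 largest changes each way above the floor on both arrays, the 6 brightest each way against the floor, up to 4 called members of each of 37 lists (every member of the mating and W303 marker lists), the cassette probe sets and the 4 strongest opposite calls each way. The patterns over 4 arrays, chromosome-end genes, neighbours of UBP10, RNA classes, genes used to show how probe sets parted, spike-control scaling and quantile normalization of the compared arrays alone were chosen after seeing the data. Simulated data were used to check the size rule. Alternatives were other normalizations, floors, ratios, brightness rules and probe set rules, and short genes alone. Tools were R 4.3.3 with limma 3.58.1, and Python 3.11.15 with matplotlib 3.10.9, numpy 2.4.6, pandas 2.3.3 and scipy 1.17.1. Gene lengths and gene order came from the RefSeq table (assembly R64); no coordinates or sequences are printed.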

Additional observations from a re-analysis of the deposited data

Results flagged for a closer look

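Of 5656 genes, 38 (0.672%) were called in opposite directions in the sir4 background as labelled (double null over the array labelled sir4 null) and, with the other labels, for the ubp10 null over wild type. The difference between the backgrounds was not tested, since each rests on 1 array per strain. The values are the log2 ratio in the sir4 background minus that in the other. Lower in the sir4 background and higher in the other were the tRNA genes YNCD0013C (-5.97), YNCJ0008W (-5.19) and YNCO0012C (-4.95), the secreted glycoprotein YGP1 (-5.01), the small reading frame YMR030W-A (-4.62) and the pheromone-induced gene PRM5 (-2.45). YGP1 read 143.0 units in the double null and 420.6 on the array labelled sir4 null, and 475.4 units in the ubp10 null and 43.3 in the wild type. Higher in the sir4 background and lower in the other were PMA2, a plasma membrane proton pump (4.25), YBR197C (3.92), TLD1 (3.56) and YMR253C (3.47). PMA2 read 51.7 and 12.8 units in the first pair, and 6.7, the floor, and 31.4 units in the other.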

How the results depend on the processing

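No paired analysis was possible because each strain has 1 array, and leaving out a replicate was not possible for the same reason. The counts of 449 higher and 176 lower genes stayed within 1.5 times under quantile normalization (403 and 212), quantile normalization of the compared arrays alone (398 and 213), cyclic loess, centring, a common trimmed mean, other floors, a brightness minimum of 4 floors, values above the floor on both arrays, plain probe sets and the brightest probe set. At a ratio of 1.5 there were 869 higher and 523 lower genes, 1171 and 1048 probe sets, 8 lower phosphate genes and 13 higher purine genes. At a ratio of 3 these were 186 and 61 genes, 373 and 133 probe sets, 2 phosphate and 4 purine genes, with 3 mitochondrial DNA genes lower and 3 general stress genes higher. Spike-control scaling, chosen after seeing the data, gave 2011 and 56 genes, 2644 and 126 probe sets, 3 lower mitochondrial DNA and 1 lower phosphate gene, and 20 stress, 16 purine and 13 iron genes higher; the median log2 ratio moved to 0.84 with it, by the construction of that scaling. Asking for both values above the floor left 4 a-specific and 5 haploid-specific genes lower, since it drops genes at the floor. Plain probe sets alone gave 280 lower probe sets, and the shortest genes alone, being fewer, 134 higher and 53 lower. With plain probe sets the log2 ratios of RPS0A (-0.02), ERG12 (-0.06), PRE3 (-0.06) and RPT5 (-0.19) changed sign. With the brightest probe set those of RPS0A (-0.02), IMD4 (-0.13), COX1 (0.53), ERG12 (-0.11), EPT1 (-0.42), PRE3 (-0.06) and RPT5 (-0.38) did. All of these were within 2-fold, so the genes were no longer called and none was called the other way. Each has probe sets that part, and the cause was not tested. Where SRB4 and other dim transcripts lie near the floor, signal over background limits what can be read, and bounds against the floor understate a change.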

Other observations

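Genes outside the named set, picked after their values were seen, touch the same biology. STE14, the methyltransferase that finishes a-factor, read 42.6 units in the double null and 170.6 on the array labelled sir4 null, 4.0-fold lower, beside 111.7 units in the ubp10 null and 157.4 in the wild type. The probe sets of the telomerase RNA TLC1 parted: 1 read 127.5 units in the double null and 19.7 on the array labelled sir4 null, and the other 143.4 and 228.3 units, so its mean gives no settled direction. Regulators that were higher on both arrays without UBP10 than on both with it included MSN4, a stress transcription factor, with 82.3 and 30.1 units and, in the ubp10 null and the wild type, 64.7 and 22.7 units, and HAP4, an activator of respiratory genes, with 127.6 and 52.0 units and 163.4 and 36.4 units. ARO9 and ARO10, enzymes of aromatic amino acid breakdown, were not called here, with 702.8 and 559.9 units and 577.8 and 380.9 units, although in the ubp10 null they read 745.6 and 1048.2 units against 21.5 and 13.3 in the wild type.

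Probe sets divided by their annotation. Of those with 1 gene symbol, 596 of 6504 were higher (9.16%) and 211 lower (3.24%). Of those not listed in the annotation, 76 of 2443 were higher (3.11%) and 198 lower (8.1%).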
